A study of Mus musculus with 6 samples.

Results

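The genes described here encode the proteins of the mitochondrial ribosome. They were chosen by symbol, Mrpl or Mrps followed by a number, without pseudogene names and with at least 10 counts in at least 3 libraries. All 78 symbols that matched also met the count condition, out of 17691 genes in the table. The lowest count of any of them in any library was 87.7 (Mrps6, CDs 3), so none lay near the limit. By their place in mammalian ribosome structures, 51 belong to the large subunit, Mrps18a and Mrps30 among them, and 26 to the small subunit. Mrps36 carries the name but is now assigned to the 2-oxoglutarate dehydrogenase complex.

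The RNA came from erythroblasts, which are red cell precursors that still hold a nucleus. They were taken from fetal livers (mouse strain C57BL/6J) as TER119-negative cells, TER119 being an antigen that appears late in erythroid maturation, and all were grown with erythropoietin. The 3 CDs libraries came from cells given carbon dots (1 ug/ml, 30 h), nanometre-sized carbon particles made from the plant Codonopsis pilosula. The 3 untreated libraries came from the same kind of culture without CDs. Whether replicates came from separate cultures or litters is not stated, so p-values speak only of the spread among the 6 libraries, and that may be technical.

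The mitochondrial ribosome, or mitoribosome, translates the few proteins that mitochondrial DNA encodes, all of them subunits of the respiratory chain and ATP synthase. Its RNAs come from mitochondrial DNA, whereas every one of its proteins is encoded in the nucleus, made in the cytosol and imported. The small subunit holds the messenger RNA and the decoding centre, and the large subunit forms peptide bonds and leads the new chain through an exit tunnel to the inner membrane. Erythroblasts need mitochondria for heme synthesis and iron-sulfur clusters, and mature red cells lose them.

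Library totals lay between 17695997 and 20066581 expected counts. Erythroid markers were present in every library. The transcription factor gene Gata1 measured 528, 440.5 and 249 CPM in CDs 1 to 3, against 528, 513 and 339 CPM in untreated 1 to 3. Among Gata1, Klf1, Epor, Hba-a1, Hbb-bt, Slc4a1, Tfrc and Alas2 the log2 fold change of CDs over untreated ran from -0.21 (Klf1) to 0.04 (Alas2), and 0 passed. Libraries numbered 3 stood apart in both groups. On the first principal component, with 91.2% of the variance, CDs 1 to 3 scored -48.0, 11.2 and 88.3, and untreated 1 to 3 scored -76.7, -43.0 and 68.1. The 12 macrophage markers held 0.0321%, 0.134% and 0.440% of counts in CDs 1 to 3, against 0.0142%, 0.0425% and 0.352% in untreated 1 to 3. Of these markers Csf1r, Adgre1, C1qb and Mertk were well detected, at up to 16255, 10115, 9450 and 2218 counts in CDs 3, while Spic, Timd4 and Cd163 stayed at 35 counts or fewer. Lyz2 had the most counts, 29086 in CDs 3 and 29343 in untreated 3, and was not higher with CDs for that number. The 7 granulocyte markers held 0.0307%, 0.0920% and 0.147% in CDs 1 to 3, against 0.0213%, 0.0575% and 0.136% in untreated 1 to 3. The 7 hepatocyte markers held 0.0334% to 0.0699% in CDs and 0.0215% to 0.0508% in untreated libraries, and the 6 endothelial markers 0.0013% to 0.0086% and 0.00064% to 0.0066%. All 4 of these lists were higher in the CDs library of each number. So were the 6 B lymphoid markers, at 0.00598% to 0.00809% in CDs and 0.00563% to 0.00733% in untreated libraries. The 7 megakaryocyte markers and the 5 mast cell and basophil markers were higher with CDs for numbers 1 and 2 only. For number 3 they held 0.0096% and 0.0143% in CDs 3, against 0.0101% and 0.0218% in untreated 3. In bulk RNA, fewer cells of a type and less RNA per cell cannot be told apart.

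The promoters of 5 members are shown because these genes mark the range of the comparison below. Mrpl22, Mrpl52 and Mrpl23 had the largest log2 differences below 0 among large subunit members, Mrps27 had the only value above 0, and Mrpl45 had a value near the median of the set. Each run is the 250 bases before an annotated start in RefSeq (GRCm38.p6, plus strand, 5′ to 3′). The windows of Mrpl22, Mrpl23 and Mrpl45 lie inside the annotated span of the gene, which begins further upstream. That of Mrps27 ends just inside it. These runs may therefore not be the only promoter of the gene. Capitals mark matches, on either strand, to motifs of factors known to act on nuclear genes for mitochondrial proteins: CCGGAAG for GABPA and other ETS factors, AANATGGC for YY1 and, for NRF1, GCGC and TGCGC with any 1 base between them.
Mrpl22, chr11:58171414-58171663: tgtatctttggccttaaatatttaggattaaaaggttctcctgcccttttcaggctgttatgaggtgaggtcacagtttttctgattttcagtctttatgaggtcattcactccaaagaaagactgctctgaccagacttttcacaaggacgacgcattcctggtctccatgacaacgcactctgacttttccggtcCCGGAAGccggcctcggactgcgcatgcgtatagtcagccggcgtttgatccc
Mrpl52, chr14:54426659-54426908: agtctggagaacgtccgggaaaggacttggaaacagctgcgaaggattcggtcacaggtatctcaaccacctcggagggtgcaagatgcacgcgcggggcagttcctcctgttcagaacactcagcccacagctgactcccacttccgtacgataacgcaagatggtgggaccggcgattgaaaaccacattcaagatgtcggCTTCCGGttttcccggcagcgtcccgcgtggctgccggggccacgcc
Mrpl23, chr7:142532782-142533031: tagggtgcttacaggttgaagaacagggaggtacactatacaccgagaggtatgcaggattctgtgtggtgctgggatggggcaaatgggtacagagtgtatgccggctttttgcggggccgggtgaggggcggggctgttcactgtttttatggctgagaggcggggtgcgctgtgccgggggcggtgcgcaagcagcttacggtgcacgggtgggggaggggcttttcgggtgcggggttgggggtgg
Mrpl45, chr11:97315466-97315715: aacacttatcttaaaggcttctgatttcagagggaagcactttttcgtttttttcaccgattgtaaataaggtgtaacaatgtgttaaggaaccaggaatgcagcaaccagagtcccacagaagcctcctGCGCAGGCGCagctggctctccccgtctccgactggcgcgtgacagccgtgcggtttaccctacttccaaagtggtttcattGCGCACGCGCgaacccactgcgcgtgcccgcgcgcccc
Mrps27, chr13:99344536-99344785: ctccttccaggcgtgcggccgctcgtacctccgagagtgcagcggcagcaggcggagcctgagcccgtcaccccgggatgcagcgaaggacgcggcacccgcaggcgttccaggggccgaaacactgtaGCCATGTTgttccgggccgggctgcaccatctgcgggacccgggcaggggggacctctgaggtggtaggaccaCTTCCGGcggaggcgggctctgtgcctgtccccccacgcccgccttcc

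RefSeq windows of 300 bases, reaching 50 bases past the start, were found for 69 of the 78 members. The ETS motif lay in at least 1 window of 26 of these 69 genes (37.7%), against 15.8% of the 13872 genes of the table that have a window. The YY1 motif was in 21 (30.4%, against 8.38%), and the NRF1 motif in 13 (18.8%, against 8.87%). At least 1 of the 3 motifs lay in 47 of the 69 (68.1%, against 28.6%). The median GC content of the windows was 58.7% in both sets. No member window held 2 of these motifs overlapping each other. Members with an ETS match had a median log2 difference between CDs and untreated (blocked fit) of -0.23, and members without it one of -0.20, which was not tested. In Mrpl22, Mrpl52 and Mrps27 the ETS match started 53, 47 and 48 bases before the annotated start. A match describes letters in these windows and shows no binding.

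With CDs, messages for the mitoribosome measured lower by a small amount, in both subunits and in each numbered pair of libraries. The difference was smaller than the spread between libraries of a group, and no member passed the test. Of the 78 members, 77 had a log2 fold change below 0 in the fit without pairing, where 48.1% of all 12283 genes tested did. Their median was -0.21, with quartiles of -0.26 and -0.17, and that of all genes tested was 0.01, with quartiles of -0.13 and 0.26. In edgeR's quasi-likelihood test 0 members passed an adjusted p of 0.05, and 0% of all genes did. Without adjustment, 0 members had p under 0.05 (0.326% of all genes were lower at that level), and DESeq2 and limma-voom without pairing gave 0 members at either level. DESeq2 called 0.0407% of all genes lower at an adjusted p under 0.05. The smallest unadjusted p of a member was 0.157.

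By summed level, the 78 genes held 0.337%, 0.320% and 0.226% of counts in CDs 1 to 3, against 0.384%, 0.361% and 0.267% in untreated 1 to 3. Each CDs library was below its numbered partner, but CDs 1 and CDs 2 lay above untreated 3, so the groups overlapped. The mean was 0.294% ± 0.0598 in CDs and 0.337% ± 0.0620 in untreated libraries (SD, n = 3 each), a difference smaller than either SD.

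**Figure D1:**
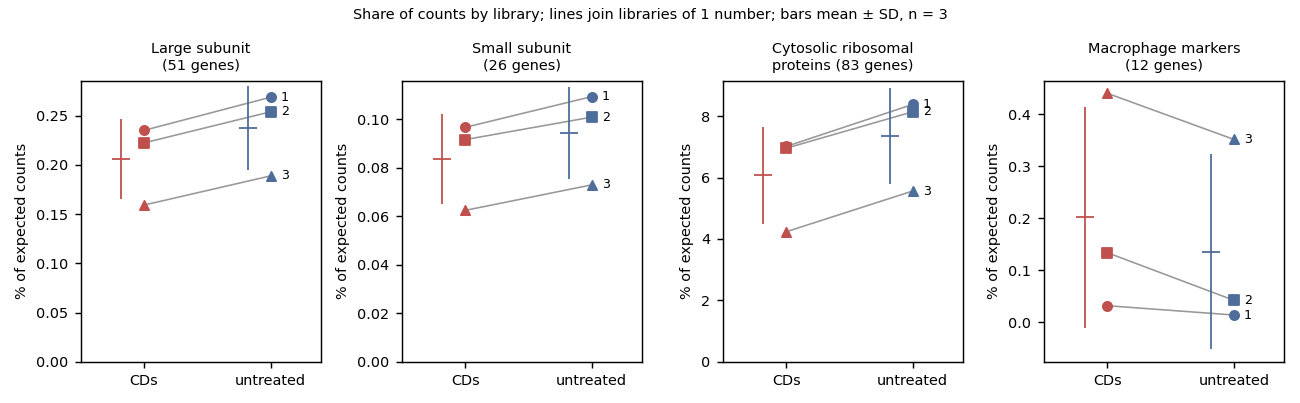
Share of all expected counts (%) held by the 51 large and 26 small subunit members, by 83 cytosolic ribosomal protein genes and by 12 macrophage markers, in each library. Lines join libraries of the same number, and bars give mean ± SD (n = 3). For both subunits and the cytosolic proteins each CDs library lies below its numbered partner, and for the macrophage markers it is the higher of the pair.

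The spread between libraries of the same group was larger than the difference between groups. From untreated 1 to untreated 3 the members differed by a median of -0.60 (log2), with 76 of 78 lower in untreated 3. CDs 3 lay below CDs 1 by a median of -0.66. The groups did not overlap in 0 of the 78 members, whereas CDs libraries were all below the untreated ones in 2.33% of all genes tested and all above them in 2.37%. Leaving out CDs 3 left a median of -0.04 with 55 members below 0, and leaving out untreated 1 left -0.10 with 67. Without CDs 1 the median was -0.35 and without untreated 3 it was -0.39, each with 77 below 0.

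Read by number, the difference was steadier. The median over the members was -0.21, -0.20 and -0.25 for numbers 1, 2 and 3, with 76, 73 and 75 of the 78 lower in the CDs library. Under all 3 numbers 70 were lower, against 26.1% of all genes tested. The fit with the replicate number as a block gave a median of -0.22. With it 0 members passed an adjusted p of 0.05 in edgeR (smallest adjusted p = 0.0916; 0.0163% of all genes passed and were lower), and 46 had an unadjusted p under 0.05 (11.9% of all genes). At an adjusted p under 0.10, 16 members were lower (3.13% of all genes), 11 of the large and 5 of the small subunit. DESeq2 with the block called 7 members lower at 0.05 (2.09% of all genes), namely Mrpl13, Mrpl18, Mrpl22, Mrpl23, Mrpl30, Mrpl52 and Mrps16. Limma-voom with the block called 0 members lower (0.0244% of all genes). The 9 macrophage markers with enough counts differed by medians of 1.498, 1.97 and 0.46 (log2) for numbers 1, 2 and 3, higher in CDs libraries. Medians were 0.42, 0.83 and 0.11 over 7 granulocyte markers, 0.25, 0.69 and 0.45 over 7 hepatocyte markers, and 1.57, 1.37 and 0.43 over the 4 endothelial markers tested. The part of these other cell types in the members' values was not tested. With both libraries numbered 3 left out, the blocked median stayed at -0.22, with 76 members below 0.

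**Figure D2:**
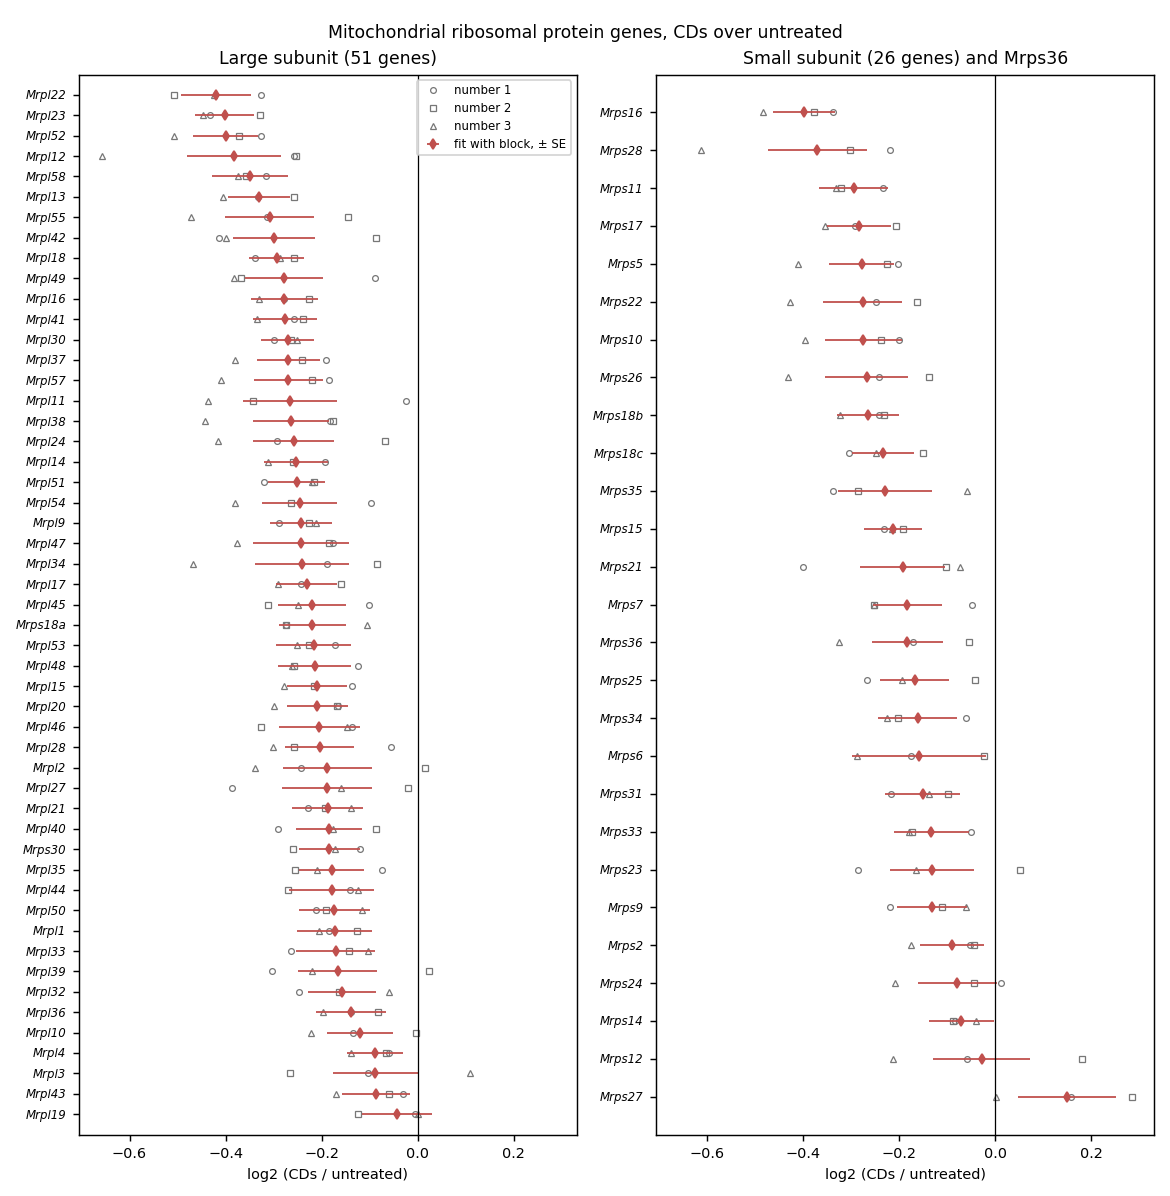
Log2 ratio of CDs to untreated for all 78 genes, by subunit, sorted by the fit with the replicate block (diamonds, ± SE). Grey symbols give the ratio within numbers 1, 2 and 3. Mrps27 is the only gene with a fitted value above 0, and 70 genes have all 3 grey symbols below 0.

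Members at or near the exit tunnel of the large subunit ranged widely. Mrpl22, the relative of bacterial L22 at the tunnel wall (chromosome 11, 58170043 to 58179580), measured 36.7, 32.7 and 21.7 CPM in CDs 1 to 3, against 46.0, 46.5 and 29.1 CPM in untreated 1 to 3. Untreated 3 was lower than CDs 1 and CDs 2, so the groups overlapped, while each CDs library was below its partner. The log2 fold change was -0.42 ± 0.28 (SE) without the block and -0.42 ± 0.07 with it (edgeR adjusted p = 0.994 and 0.0916). Mrpl23, at the tunnel exit (chromosome 7, 142532467 to 142540747), measured 60.2, 58.2 and 32.9 CPM with CDs, against 81.2, 73.0 and 44.9 CPM untreated (-0.40 ± 0.06 with the block). This gene too was lower in 3 of 3 pairs, and it has 1 named pseudogene, as has Mrpl48, while Mrps36 has 3. Expected counts of Mrpl23 and Mrpl48 were whole in every library, so no division of their reads shows. Those of Mrps36 held fractions (932.84 in CDs 1), so its reads could be divided. Mrpl24, another protein near the exit, had 47.6, 49.9 and 36.5 CPM against 48.7 to 58.3 CPM untreated, with a blocked value of -0.26 ± 0.08. Mrpl4, whose bacterial relative also lines the tunnel, had a blocked value of -0.09 ± 0.06, near the end of the set closest to 0. Mrpl45, which anchors the ribosome at the inner membrane, measured 47.7, 40.3 and 32.6 CPM with CDs and 51.1, 50.0 and 38.8 CPM untreated (-0.22 ± 0.07).

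The stalk that recruits translation factors gave unequal values. Mrpl12, the relative of bacterial L7/L12 (chromosome 11, 120484637 to 120488754), measured 63.7, 53.3 and 24.4 CPM in CDs 1 to 3, against 76.2, 63.5 and 38.5 CPM in untreated 1 to 3. Its ratio was most negative for number 3, at -0.66 (log2), against -0.26 and -0.25 for numbers 1 and 2. The blocked value was -0.38 ± 0.10 (edgeR adjusted p = 0.101). Mrpl11, at the stalk base, had -0.27 ± 0.10 with nearly equal levels for number 1 (46.2 CPM with CDs, 47.0 CPM untreated). Mrpl10, which holds Mrpl12 on the ribosome, had 56.4, 57.3 and 45.1 CPM with CDs and 61.9, 57.5 and 52.6 CPM untreated, a blocked value of -0.12 ± 0.07. Mrpl1, of the L1 stalk on the other side, had -0.17 ± 0.08.

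Members around the peptidyl transferase centre also differed among themselves. Mrpl3 measured 53.4, 42.4 and 38.2 CPM with CDs and 57.4, 50.96 and 35.4 CPM untreated, lower for numbers 1 and 2 and higher for number 3 (-0.09 ± 0.09 with the block). Mrpl2 had -0.19 ± 0.09 and was level for number 2, at 34.6 CPM with CDs and 34.3 CPM untreated. Mrpl27, whose bacterial relative reaches into that centre, had -0.19 ± 0.09, with number 1 accounting for most of it (29.9 CPM with CDs, 39.1 CPM untreated). Mrpl16, whose bacterial relative lies by that centre, had -0.28 ± 0.07. None of these 4 passed an adjusted p of 0.05 in an edgeR fit with all 6 libraries.

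Other large subunit members with the smallest p-values were Mrpl52, Mrpl13, Mrpl18, Mrpl30 and Mrpl58. Mrpl52, a protein found only in mitochondrial ribosomes (chromosome 14, 54426909 to 54429750), measured 50.9, 47.0 and 29.8 CPM with CDs, against 63.8, 60.9 and 42.4 CPM untreated (-0.40 ± 0.07 with the block). Mrpl13 and Mrpl18, relatives of bacterial proteins, had -0.33 ± 0.06 and -0.29 ± 0.06. Mrpl30 showed nearly the same ratio in each pair, at -0.30, -0.26 and -0.25. Mrpl58, a peptidyl-tRNA hydrolase built into the large subunit that can release stalled chains, measured 21.7, 20.5 and 15.2 CPM with CDs and 27.1, 26.2 and 19.7 CPM untreated (-0.35 ± 0.08). Mrpl44, with an RNase III-like fold, measured 17.3, 16.6 and 15.8 CPM with CDs, against 19.1, 19.95 and 17.2 CPM untreated (-0.18 ± 0.09). Only CDs 1 reached the range of its untreated libraries, just above untreated 3.

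In the small subunit the median was -0.19, with 25 of 26 members below 0, and in the large subunit -0.21, with 51 of 51. The blocked medians were -0.19 and -0.22. Without CDs 3 the small subunit median was 0.00215 with 12 members below 0, and that of the large subunit -0.06 with 42. Mrps16, whose human gene is a known cause of mitochondrial disease (chromosome 14, 20391222 to 20393634), measured 47.2, 45.7 and 29.8 CPM with CDs, against 59.6, 59.3 and 41.6 CPM untreated. It was lower in 3 of 3 pairs, with a blocked value of -0.40 ± 0.06. Mrps22 had -0.28 ± 0.08 and Mrps34 -0.16 ± 0.08, both proteins with no bacterial relative. Mrps18c had -0.23 ± 0.06, Mrps7 -0.18 ± 0.07, Mrps2 -0.09 ± 0.07 and Mrps36, outside the ribosome, -0.18 ± 0.07.

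Relatives of bacterial ribosomal proteins and proteins specific to mitochondria had medians close to each other. In the large subunit the medians were -0.20 over 30 relatives of bacterial proteins and -0.23 over 21 specific ones. In the small subunit they were -0.21 over 17 and -0.16 over 9. Values ran from -0.42 to -0.04 and from -0.39 to -0.09 in the large subunit, and from -0.39 to -0.02 and from -0.26 to 0.16 in the small one, so the classes overlapped. These medians carry no test.

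Mrps12 and Mrps27 lay at the upper end of the set. Mrps12, the protein of the decoding centre (chromosome 7, 28739641 to 28741821), measured 26.7, 26.9 and 18.2 CPM in CDs 1 to 3, against 27.8, 23.7 and 21.1 CPM in untreated 1 to 3. Number 2 was higher with CDs and the other pairs lower, for a blocked value of -0.03 ± 0.10. With totals as the only scaling its value without the block was 0.00491. Mrps27, an RNA-binding pentatricopeptide repeat protein (chromosome 13, 99344767 to 99415562), measured 16.8, 17.3 and 13.2 CPM with CDs, against 15.1, 14.2 and 13.2 CPM untreated (0.15 ± 0.10 with the block, edgeR adjusted p = 0.366). The CDs library was the higher one for numbers 1 and 2, and the pair numbered 3 was level. In GENCODE M21, 24.2% of the exon bases of Mrps27 lie in exons of the antisense gene 6430562O15Rik. No strand-marking step stands in the library protocol, so reads within the shared bases cannot be told apart by strand. Besides Mrps12 and Mrps27, the members not lower under all 3 numbers were Mrpl2, Mrpl3, Mrpl19, Mrpl39, Mrps23 and Mrps24, which makes 8 in all.

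**Figure D3:**
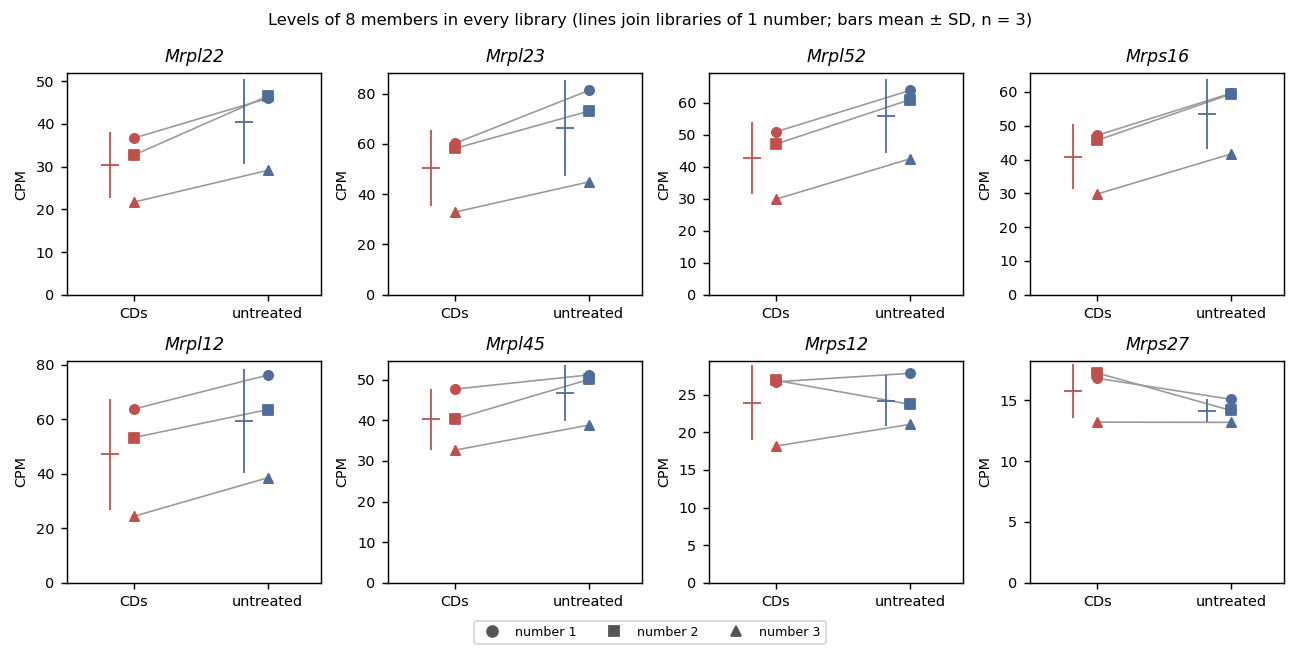
Level (CPM) of 8 members in each library, with lines joining libraries of the same number and bars giving mean ± SD (n = 3). In Mrpl22, Mrpl23, Mrpl52, Mrps16, Mrpl12 and Mrpl45 each CDs library lies below its numbered partner, whereas lines cross in Mrps12 and slope the other way for numbers 1 and 2 in Mrps27.

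Per length, the mean level over all libraries ranged from 6.15 to 133 FPKM, with a median of 32.6 FPKM. Mrpl30 was highest, with 127, 131 and 108 FPKM in CDs 1 to 3, against 153, 157 and 124 FPKM in untreated 1 to 3. Mrpl52 averaged 127 FPKM over the 6 libraries and Mrps18c 106 FPKM. At the low end stood Mrpl19 at 6.15, Mrps25 at 7.22 and Mrpl17 at 7.44 FPKM. For Mrpl19, 36.0% of exon bases are shared with Gcfc2 on the other strand, and for Mrps25 69.8% with Nr2c2. Across the 78 genes the blocked log2 fold change ran lower in genes with higher FPKM (Pearson's r = -0.44, Spearman's rho = -0.36). This is a description across genes of the same libraries, which are not independent replicates.

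The 78 genes lie on 17 chromosomes, 11 of them on chromosome 11. In GENCODE M21, 19 members (24.4%) have a protein-coding gene starting head to head within 1000 bases, as do 11.2% of the 12016 protein-coding genes tested and matched. The blocked log2 fold change was below 0 in 13 of these 19 neighbours, with a median of -0.13. Of all 12283 genes tested, 5912 were below 0 in that fit. The neighbours above 0 were Klc4 (0.31), Lrrc46 (0.18), Zfp661 (0.17), Pnpla7 (0.14), Ppp1r10 (0.03) and Eme2 (0.0006). Fau, a cytosolic ribosomal protein gene that neighbours Mrpl49, had -0.28 ± 0.06, and Ndufs6, of respiratory complex I, next to Mrpl36, had -0.27 ± 0.06. Sars2, the mitochondrial seryl-tRNA synthetase, starts 172 bases from Mrps12. It measured 21.7, 19.7 and 13.2 CPM with CDs, against 26.4, 25.3 and 19.1 CPM untreated, with a blocked value of -0.39 ± 0.09, beside the -0.03 of Mrps12. The difference between these neighbours was not tested. In 18 of the 78 members more than 10% of exon bases are shared with another gene's exons, led by Mrpl53 (88.0%) and Mrps34 (77.8%). This is a share of annotated bases and does not measure how uncertain a level is. Expected counts of Mrpl53 and Mrps34 were whole in every library. What the overlaps add to the levels of these 18 was not tested.

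Some proteins of the mitoribosome carry other names. Of 6 tested, 5 were below 0 in the fit without the block, with a median of -0.17, and 0 passed. Dap3, a GTP-binding protein of the small subunit, measured 102, 93.1 and 54.7 CPM with CDs, against 121, 110 and 70.4 CPM untreated (-0.28 ± 0.06 with the block). DESeq2 with the block called Dap3 lower (adjusted p = 0.0460), and edgeR with the block did not (adjusted p = 0.0916). Aurkaip1, another small subunit protein, had 71.2, 70.5 and 61.0 CPM against 79.1, 75.7 and 72.7 CPM, so that all CDs libraries lay below all untreated ones (-0.17 ± 0.11 without the block, edgeR adjusted p = 0.994). Chchd1 had -0.21 ± 0.25 without the block and -0.22 ± 0.08 with it. The gene above 0 was Lactb, a mitochondrial protease that was once counted as a ribosomal protein, at 0.05 ± 0.12 without the block.

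Medians nearer 0 were found for the genes that build and run the mitoribosome, a difference that was not tested. Among 29 genes listed for assembly and RNA modification, 25 were below 0 (median -0.14) and 0 passed. Ybey, whose bacterial relative acts on ribosomal RNA, measured 10.1, 8.6 and 8.4 CPM with CDs, against 14.98, 13.97 and 10.7 CPM untreated, without overlap between the groups. Its log2 fold change was -0.55 ± 0.20 (unadjusted p = 0.0330, edgeR adjusted p = 0.994). Eral1, a chaperone of the small subunit RNA, had -0.30 ± 0.25 without the block and -0.30 ± 0.06 with it (edgeR adjusted p = 0.0916 with the block). The pseudouridine synthase gene Trub2 had -0.22 ± 0.16 and -0.23 ± 0.10. Of 16 translation factor genes 15 were below 0 (median -0.13) and 0 passed, with Qrsl1, of the amidotransferase that makes glutaminyl-tRNA, at -0.41 ± 0.24. Mtfmt, the formyltransferase of the initiator tRNA, had -0.21 ± 0.20, and Oxa1l, which inserts new chains into the inner membrane, -0.09 ± 0.10.

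Genes of mitochondrial transcription and RNA handling had a median of -0.11, with 13 of 18 below 0 and 0 called. Pnpt1, a mitochondrial exoribonuclease, measured 99.7, 106 and 109 CPM with CDs, against 114, 120 and 121 CPM untreated. All 3 CDs libraries lay below the untreated ones, and libraries numbered 3 were not low for this gene (-0.17 ± 0.10). Hsd17b10, a subunit of mitochondrial RNase P, had -0.23 ± 0.25 and the helicase gene Supv3l1 -0.28 ± 0.31. Protein import genes, which bring the ribosomal proteins into mitochondria, had 25 of 25 below 0, a median of -0.20 and 0 called without the block. With the block edgeR called 0 of the 25 lower (0.0163% of all genes), and DESeq2 called 1 lower (2.09% of all genes). The gene called was Tomm20, a receptor of the outer membrane (-0.31 ± 0.06 in edgeR, DESeq2 adjusted p = 0.0124). Among the import genes, Tomm7 had -0.30 ± 0.19, Timm22 -0.19 ± 0.14 and Dnajc19 -0.29 ± 0.23 without the block.

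Messages for the factors that bind the motifs above were near level. Gabpa, the DNA-binding ETS subunit, had 0.0061 ± 0.14, its partner Gabpb1 -0.08 ± 0.12, Nrf1 -0.07 ± 0.22 and Yy1 -0.07 ± 0.11, with 0 of the 11 regulators tested passing. Tfe3, a regulator of lysosomal and mitochondrial genes, measured 51.2, 64.7 and 111 CPM with CDs, against 44.8, 45.7 and 91.4 CPM untreated (0.32 ± 0.42). Esrra, a nuclear receptor that drives mitochondrial genes, measured 10.1, 10.9 and 17.7 CPM with CDs, against 8.0, 8.9 and 14.7 CPM untreated (0.30 ± 0.35). Both were higher in 3 of 3 pairs, and in both groups highest in the library numbered 3. With the block the values were 0.32 ± 0.08 for Tfe3 and 0.30 ± 0.10 for Esrra (edgeR adjusted p = 0.0975 and 0.127). Without CDs 3 both values without the block turned slightly negative, at -0.066 and -0.0032. With both libraries numbered 3 left out, the blocked value of Tfe3 was 0.33 (edgeR adjusted p = 0.0441, in a fit that called 1835 genes).

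**Figure D4:**
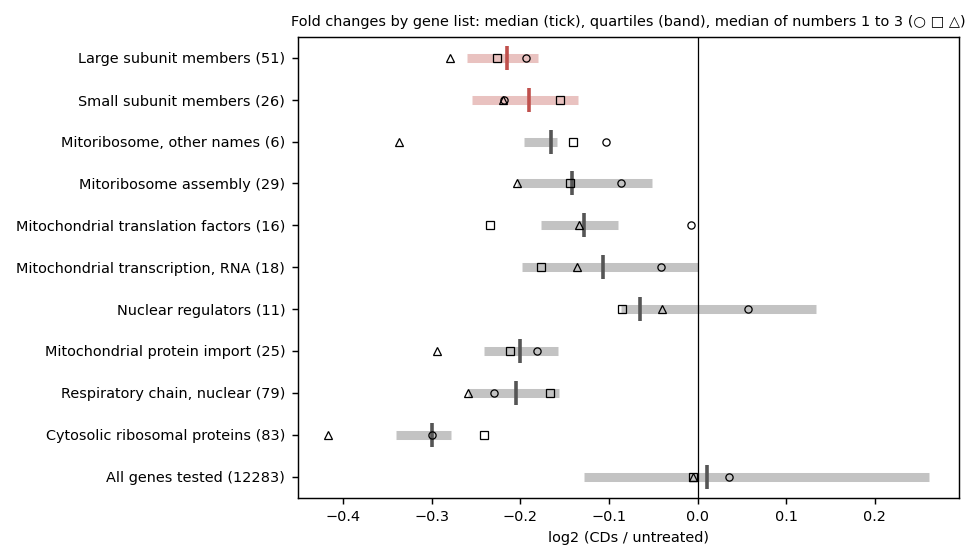
Log2 fold change of CDs over untreated by gene list, with the number of genes tested in brackets. Ticks are medians and bands quartiles of the fit without the block, and open symbols are medians within numbers 1 to 3. Large and small subunit members sit at -0.21 and -0.19, cytosolic ribosomal proteins at -0.30 and all genes tested at 0.01.

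Beside these lists, 83 cytosolic ribosomal protein genes had a median of -0.30 and 79 nuclear genes of the respiratory chain and ATP synthase one of -0.20. Under all 3 numbers 82 of the 83 and 75 of the 79 were lower (26.1% of all genes tested). With the block, 66 and 20 were lower at an edgeR adjusted p under 0.10 (3.13% of all genes). At 0.05 edgeR with the block called 0 and 1 lower (0.0163% of all genes), and DESeq2 with it 76 and 10 (2.09%). The steady difference by number was thus not particular to the mitoribosome. The difference between the mitoribosome and either list was not tested. Between untreated 3 and untreated 1 the medians of these lists were -0.63 and -0.48, beside -0.60 for the mitoribosome.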

How the data were processed

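RNA-seq libraries of 3 CDs and 3 untreated erythroblast samples were analysed. Per the labels' protocols, mRNA was bound to oligo(dT) beads, and single-end reads were made on a DNA nanoball instrument. GRCm38.p6, RSEM 1.2.12, HISAT2 2.0.4, DESeq2 1.4.5 and Bowtie2 2.2.5 appear in the submitters' processing notes, without their roles. The authors deposited expected counts per gene (30.1% of values not whole) and a normalised table whose unit, judged from the ratio of counts to values, is FPKM. The deposited expected counts were rounded, filtered with filterByExpr (12283 genes, 99.9% of counts), TMM-scaled and tested with edgeR 4.0.16 (quasi-likelihood, robust, R 4.3.3), with Benjamini-Hochberg adjustment over all genes tested. CPM use TMM-scaled totals. DESeq2 1.42.0 and limma-voom (limma 3.58.1) were alternatives. The deposited FPKM served for levels per length. Counts and FPKM gave the same ratios between libraries for the 78 members, with RMS log2 deviations of at most 0.0368.

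Deviations from group means correlated at 0.94, 0.44 and 0.95 for the same replicate numbers, above the limit of 0.1, so the numbers were taken to pair the libraries, from the data and not the labels. Exchanging numbers 1 and 2 of the CDs group also passes the limit (0.78, 0.23 and 0.95). Genes were matched to RefSeq by Entrez number, and gene spans and promoter windows with their starts came from RefSeq. Exon overlaps and the starts of head to head neighbours came from GENCODE M21. Both are on GRCm38. The edgeR fits were tested on data simulated from those same fits, with planted changes larger than the differences of any member. That check does not cover differences of the members' size or the choice of the block. Alternatives were scaling, filter, tool, block and left-out libraries.

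Members and gene lists were chosen with earlier results of these data known. Named members are the 6 with the smallest unadjusted p in each direction without the block (upward only Mrps27), the 6 with the smallest p with it, the 3 highest and 3 lowest by FPKM, and 16 fixed by role. From each pathway list the 3 smallest p-values were named. Mrps6, Mrpl4, Mrpl16, Mrpl39, Mrpl48, Tomm20, Mrps23, Mrps24, Mrpl53, Lactb, Gabpa, Nrf1, Yy1, Fau, Ndufs6 and Sars2 were named after their values were seen. The same holds for the head to head neighbours named as above 0. The assembly list also holds Lyrm7, Nsun3 and D10Jhu81e, which are not ribosome assembly factors. The summed level of the erythroid markers is not reported here.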

Additional observations from a re-analysis of the deposited data

How the results depend on the processing

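The median over the 78 members stayed below 0 under all alternatives run, from -0.39 (without untreated 3) to -0.04 (without CDs 3) with 1 library left out. The range was -0.39 to -0.06 for the large and -0.35 to 0.00215 for the small subunit. List medians turned above 0 in 3 lists: mitoribosome proteins of other names (-0.34 to 0.02), translation factors (-0.30 to 0.03) and nuclear regulators (-0.12 to 0.02). The others stayed below 0, namely assembly (-0.25 to -0.0006), transcription and RNA handling (-0.22 to -0.0045) and import (-0.39 to -0.0032). Members called were 0 in edgeR with the replicate block, 7 in DESeq2 with it, and 0, 11 and 10 in edgeR with the block when both libraries numbered 1, 2 or 3 were left out. Genes called were 14 in DESeq2, 5 in edgeR with the replicate block, 1210 in DESeq2 and 7 in limma-voom with it, and 0, 899 and 1835 in edgeR with the block without number 1, 2 or 3, against 0 in edgeR and limma-voom without the block (127 and 133 at an unadjusted p under 0.05). All members called in these fits were lower, whereas the gene counts hold both directions. In DESeq2 with the block 257 genes were lower and 953 higher. In edgeR with the block, 291 were lower and 608 higher without number 2, and 359 lower and 1476 higher without number 3. The cause of the differences between fits was not tested. Leaving out 1 library turned the sign of some values. Without CDs 3, 55 of the 78 members stayed below 0. Named genes whose sign turned included Tfe3 (0.32 with all libraries) and Esrra (0.30), which were not close to 0. The ranges were -0.22 to 0.0973 for Mrpl19, -0.28 to 0.0463 for Mrpl3, -0.13 to 0.15 for Mrps12, -0.26 to 0.0882 for Mrps2, -0.41 to 0.0879 for Mrps34, -0.35 to 0.0189 for Mrps7, -0.00317 to 0.61 for Esrra and -0.0660 to 0.74 for Tfe3. Mrps12 was also above 0 with totals only (0.00491) and with the block without number 3 (0.0395). Changing the scaling moved the median of all genes by less than 0.1 (from -0.006 to 0.04). The SEs of fold changes come from the edgeR quasi-likelihood fits and take in spread between libraries as well as counting error. Each group had only 3 libraries. The part of the spread between numbers in what the test without the block called was not tested.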
